A study of Mus musculus with 24 samples.

Results

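The 10 genes described here encode the core proteins that make microRNAs and carry out their silencing in mouse: the Argonautes Ago1, Ago2, Ago3 and Ago4, the Tnrc6 scaffolds Tnrc6a, Tnrc6b and Tnrc6c, the nuclear pair Drosha and Dgcr8, and Dicer1. They were taken by name, by matching each gene's Ensembl identifier in the count tables, and all 10 were found among 37621 gene entries. The study compared Cdr1as knockout mice with wild-type mice of the C57BL/6 strain in dissected cerebellum, cortex, hippocampus and olfactory bulb, with 3 libraries per genotype and region, 24 in all, made from total RNA after removal of ribosomal RNA. Cdr1as is a neuronal circular RNA to which miR-7 binds at many places, and the labels name no other allele or treatment in either genotype. The labels state no age and do not say which libraries come from which animal. The spread behind each p-value is therefore that between libraries, and it may be technical.

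A microRNA begins as a hairpin in a longer transcript. Drosha, an RNase III enzyme, cuts the hairpin free in the nucleus while bound to its RNA-binding partner Dgcr8, and Dicer1 trims it to a short duplex in the cytoplasm. An Argonaute keeps 1 strand of the duplex and finds messenger RNAs that pair with bases 2 to 8 of it, the seed. Tnrc6 proteins bind the Argonaute and bring in the enzymes that shorten the poly(A) tail of the target, remove its cap and degrade it. Ago2 is the member of its family best known for cutting a fully paired target, as happens to Cdr1as itself when miR-671 binds it. The pair also limits the level of Dgcr8 messenger RNA, since a hairpin in the Dgcr8 transcript is cut by Drosha bound to Dgcr8.

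Cdr1as, the targeted gene, had 5617 to 130878 counts in the 12 wild-type libraries and 0 to 13 counts in the 12 knockout libraries. Gene counts per library ranged from 5.18 to 30.46 M (M, mega). Cerebellum knockout 1 (6.5 M), olfactory bulb wild type 1 (7.4 M) and olfactory bulb knockout 2 (5.18 M) were the shallow ones, under 8 M. Levels below are counts per M gene counts (CPM) after TMM scaling over all 24 libraries. Summed markers of each region were higher in every library of that region than in any library from elsewhere; the narrowest gap was in cortex, at 918 CPM or more against 539 CPM or less. The share of reads that the counting gave to no gene differed between libraries and is used below: it was 53.7% to 61.5% in cerebellum, 52.3% to 62.9% in olfactory bulb, 37% to 55.4% in hippocampus and 20.3% to 56.2% in cortex. The 10 genes were well covered, with 184 to 12974 counts per gene and library and a median of 2477.

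The microRNAs known to bind Cdr1as are miR-7 and miR-671. The mature sequences are shown because their seeds set which sites were searched for in the members. Both miR-7 forms have the same seed, in capitals, and miR-671-5p has another. The hairpin of miR-1306 lies in an exon of Dgcr8. Sequences are from RefSeq, build GRCm38.p6.
mmu-miR-7a-5p: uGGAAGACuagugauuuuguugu
mmu-miR-7b-5p: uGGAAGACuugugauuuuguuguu
mmu-miR-671-5p: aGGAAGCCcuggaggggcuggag
mmu-miR-1306-5p: cACCACCUccccugcaaacgucc
mmu-miR-1306-3p: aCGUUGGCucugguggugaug

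The longest annotated 3′ UTR of Ago1 and that of Ago3 each held 1 match to the 7 letters that pair with the miR-7 seed (GTCTTCC, searched on the transcribed strand). The other 8 members had no match. Among 19824 mouse 3′ UTRs, 13.2% held this match, but the share was 39.7% of the 1098 UTRs at least as long as that of Ago1 (4491 bases) and 75% of the 24 at least as long as that of Ago3 (12742 bases). The match to miR-671-5p (GGCTTCC) occurred once in each of 5 members, Ago1, Ago2, Ago3, Tnrc6b and Tnrc6c. It was held by 13.7% of all 3′ UTRs and 41.3% of those at least as long as that of Ago1. The share was 75% of the 24 at least as long as that of Ago3. The windows below give the miR-7 matches and the miR-671-5p match of Ago2, with the match in capitals. A match is a description of letters, not a tested site.
Ago1, miR-7: tgacatgaccctGTCTTCCttccgcctg
Ago3, miR-7: aacttgagtgagGTCTTCCtgagtcttg
Ago2, miR-671-5p: ctgttgggttttGGCTTCCttctccctt

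The genes differed in level. Per kilobase of annotated exon, the mean of the 4 wild-type regions was highest for Drosha (23.8 CPM per kb) and Ago2 (17.6), followed by Ago1 (15.7), Tnrc6b (14.9), Tnrc6c (13.5), Tnrc6a (12.7), Ago3 (10.1), Dgcr8 (8.54), Dicer1 (7.6) and Ago4 (3.83). Drosha stayed first and Ago4 last when the longest transcript was used as the length (30.8 and 4.07 CPM per kb), but the order between them changed, and Dgcr8 moved from 8.54 to 15.2. Ago4 was the rarest Argonaute in every wild-type region, at 6.9% ± 1.49 (cortex) to 9.57% ± 0.852 (olfactory bulb) of the Argonaute sum (SD, n = 3 in each region). Ago2 and Ago1 together made up most of that sum in all 4 regions. Overlapping neighbours limit the counts: exons of Ago2 overlap those of Chrac1, and exons of Dgcr8 overlap those of Trmt2a, on the opposite strand in both cases. Whether strand was used in the counting is not given in the sources used here, so reads from overlapping exons cannot be told apart.

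**Figure D1:**
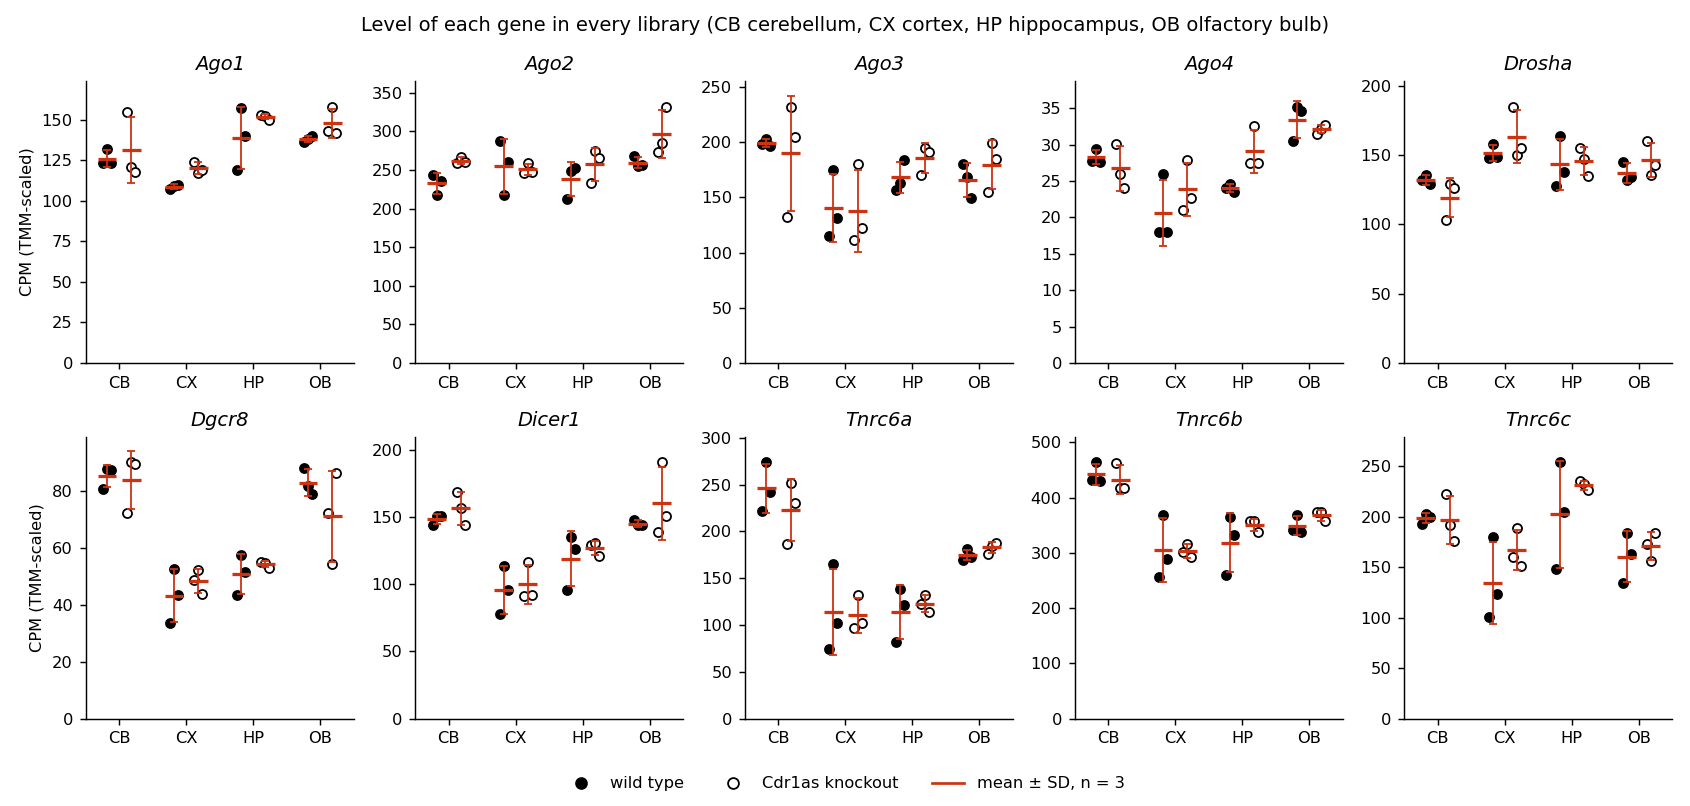
Level of each of the 10 genes in CPM, on axes that start at 0, by region (CB cerebellum, CX cortex, HP hippocampus, OB olfactory bulb); each point is a library, filled for wild type and open for knockout, with the mean and SD of 3 in red. Knockout and wild-type points intermix in most panels, while wild-type Tnrc6a and Dgcr8 lie higher in cerebellum than in cortex and hippocampus.

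The first comparison asked whether wild-type brain regions differ in the machinery. Dgcr8, Tnrc6a, Ago4, Dicer1, Tnrc6b and Ago3 differed between the 4 regions at an adjusted p under 0.05, 6 of the 10 members, and Ago1 (0.0516), Tnrc6c (0.1), Ago2 (0.395) and Drosha (0.435) did not pass. The outcome for Ago1 depended on the settings: it passed with DESeq2 (0.0189), RLE scaling (0.0468), the stricter filter (0.0413), a replicate block (0.0258) and without hippocampus wild type 1 (0.0109) or 2 (0.0498). Tnrc6c passed with the block (0.00399) and without cortex wild type 2 (0.00983) or hippocampus wild type 1 (0.0237). Across all genes tested, 10085 of 16995 (59.3%) passed the same test, so the members' share was close to the background. Cerebellum was higher than cortex for 7 members, and olfactory bulb was higher than cortex for 4. The test was edgeR's quasi-likelihood F-test over the 12 wild-type libraries, with Benjamini-Hochberg adjustment over all genes.

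Of the nuclear pair, Dgcr8 had the smallest adjusted p of the 10 members (9.97e-05). Its wild-type level was 81, 88 and 87.5 CPM in cerebellum and 88.4, 81.9 and 79.1 CPM in olfactory bulb, against 43.6, 57.6 and 51.7 CPM in hippocampus and 33.8, 52.6 and 43.6 CPM in cortex. No wild-type cerebellum or olfactory bulb library overlapped any wild-type cortex or hippocampus library, a pattern that was not counted over all genes. The log2 difference was 0.98 ± 0.16 (SE, n = 3 per region) for cerebellum over cortex (adjusted p = 1.50e-04), 0.77 ± 0.15 for cerebellum over hippocampus (adjusted p = 0.00109), -0.96 ± 0.16 for cortex against olfactory bulb (adjusted p = 2.82e-04) and -0.75 ± 0.16 for hippocampus against olfactory bulb (adjusted p = 0.00186). Cerebellum and olfactory bulb did not differ beyond their spread (0.02, 95% interval -0.31 to 0.35), nor did cortex and hippocampus (-0.21, interval -0.55 to 0.12).

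For Drosha, its partner, wild-type means were 132 ± 3.53 CPM in cerebellum, 137 ± 6.77 in olfactory bulb, 143 ± 18.4 in hippocampus and 151 ± 5.31 in cortex (SD, n = 3 each), and no pair of wild-type regions passed the test. In the knockout libraries Drosha did differ between regions (adjusted p = 0.028), with cerebellum below cortex by -0.44 ± 0.11 (adjusted p = 0.0062), against -0.20 ± 0.11 in wild type (adjusted p = 0.156). The ratio of Drosha to Dgcr8 per kilobase was 2.01 ± 0.101 in cerebellum and 2.14 ± 0.059 in olfactory bulb, against 3.65 ± 0.178 in hippocampus and 4.66 ± 0.926 in cortex (SD, n = 3 each). The knockout libraries gave 1.84 ± 0.0135, 2.74 ± 0.552, 3.47 ± 0.174 and 4.4 ± 0.62 in the same order. In both genotypes cerebellum held the lowest mean ratio and cortex the highest. The microRNA hairpins annotated in Dgcr8 exons, Mir1306 among them, had a count of 0 in every library. They lie on the same strand as Dgcr8, so a read there overlaps both genes and may have been set aside as ambiguous. The count of 0 therefore does not measure the hairpins.

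Dicer1 was at 144, 151 and 151 CPM in wild-type cerebellum and 148, 144 and 144 CPM in olfactory bulb. Hippocampus had 96.1, 135 and 126 CPM and cortex 78.3, 114 and 96 CPM. Cortex was lower than both cerebellum (log2 difference 0.62 ± 0.15 for cerebellum over cortex, adjusted p = 0.00345) and olfactory bulb (-0.62 ± 0.15, adjusted p = 0.00509). Hippocampus lay between them and did not differ from its neighbours in that order (adjusted p = 0.101 and 0.303).

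Among the scaffolds, Tnrc6a had the widest regional range of the 10 members, with a mean 2.16 times as high in cerebellum as in cortex. It was at 222, 274 and 242 CPM in cerebellum, 170, 181 and 173 CPM in olfactory bulb, 82.1, 138 and 121 CPM in hippocampus and 74.7, 165 and 102 CPM in cortex. Every wild-type cerebellum library was above every wild-type library of the other regions, a pattern that was not counted over all genes. Cerebellum against olfactory bulb did not pass, though (0.47 ± 0.24, interval -0.05 to 0.99, edgeR adjusted p = 0.149). Cerebellum exceeded cortex by 1.11 ± 0.24 (adjusted p = 0.00191) and hippocampus by 1.13 ± 0.24 (adjusted p = 0.00184) on the log2 scale. Its difference between hippocampus and olfactory bulb was at the threshold (-0.66 ± 0.24, adjusted p = 0.0495) and lost the call when any of 9 libraries was left out (adjusted p up to 0.19, without hippocampus wild type 1) or with RLE in place of TMM scaling (0.0518) or no low-count filter (0.0857).

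Tnrc6b, the scaffold with the longest annotated exons, was also highest in cerebellum, at 432, 464 and 430 CPM against 256, 369 and 289 CPM in cortex. Cerebellum exceeded cortex by 0.53 ± 0.15 (adjusted p = 0.00941) and hippocampus by 0.49 ± 0.15 (adjusted p = 0.016). Against olfactory bulb it did not pass (0.32 ± 0.15, edgeR adjusted p = 0.115). The hippocampus call was lost without cerebellum wild type 2 (adjusted p = 0.0513) or hippocampus wild type 1 (0.0568), and the test over 4 regions without cerebellum wild type 2 (0.0788). Tnrc6c had its highest wild-type mean in hippocampus, 202 ± 53.3 CPM, then cerebellum with 198 ± 5.35, olfactory bulb with 160 ± 24.8 and cortex with 135 ± 40.4 (SD, n = 3 each). Cerebellum over cortex was its only call (0.56 ± 0.22, adjusted p = 0.0487), and it was lost when any of 8 libraries was left out (adjusted p up to 0.164, without cortex wild type 1).

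The makeup of the Tnrc6 sum per kilobase shifted between regions. Tnrc6a made up 36.1% ± 1.72 of it in wild-type cerebellum and 23.4% ± 0.922 in hippocampus, while Tnrc6c made up 28.9% ± 1.02 and 41% ± 1.73 (SD, n = 3 each). The ranges did not overlap for either gene. Knockout libraries gave 34.3% ± 5.1 and 22.8% ± 0.996 for Tnrc6a, and 29.9% ± 3.21 and 42.4% ± 0.845 for Tnrc6c. The Tnrc6 sum over the Argonaute sum was 1.11 ± 0.0668 in wild-type cerebellum and 0.752 ± 0.212 to 0.814 ± 0.0647 in the other 3 regions. These shares and ratios depend on the length used. With the longest transcript as length, Tnrc6a went from 12.7 to 19.8 CPM per kb and Tnrc6b from 14.9 to 20.4. Tnrc6c went from 13.5 to 15, Ago1 from 15.7 to 17.7 and Ago2 from 17.6 to 17.8. The shares and ratios are descriptions and were not tested.

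**Figure D2:**
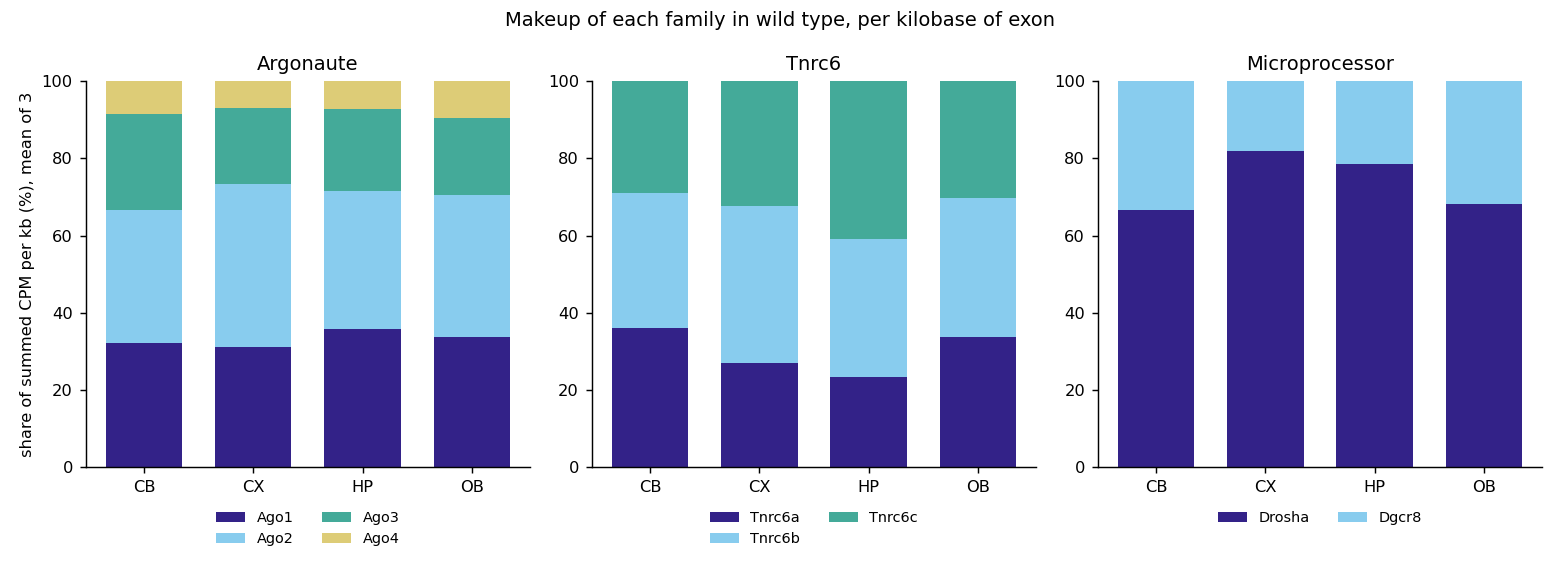
Stacked bars of each member's share (%) of the summed CPM per kilobase of its family (Argonaute, Tnrc6, and Drosha with Dgcr8 as the microprocessor), as the mean of 3 wild-type libraries in each region (CB cerebellum, CX cortex, HP hippocampus, OB olfactory bulb). Tnrc6a holds 36.1% of the Tnrc6 sum in cerebellum and 23.4% in hippocampus, and Dgcr8 33.3% of its pair in cerebellum and 18% in cortex.

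Among the Argonautes, Ago2 was at 244, 218 and 236 CPM in wild-type cerebellum, 287, 217 and 260 in cortex, 213, 249 and 253 in hippocampus and 268, 255 and 256 in olfactory bulb. No pair of regions passed for Ago2, whose highest mean was 1.12 times its lowest. Ago1 was lower in cortex (107, 109 and 110 CPM) than in olfactory bulb (136, 138 and 140 CPM), by -0.37 ± 0.12 on the log2 scale (adjusted p = 0.0217). That call was lost without cortex wild type 1 or 3 or olfactory bulb wild type 2 or 3 (adjusted p 0.0555 to 0.0686), with no low-count filter (0.0555) and with the covariate described below (0.239).

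Ago3 was at 198, 203 and 196 CPM in cerebellum and 115, 175 and 131 CPM in cortex (0.50 ± 0.14, adjusted p = 0.0096). Its test over 4 regions was at the threshold (adjusted p = 0.0434) and lost the call without any of 9 libraries (up to 0.119, without cortex wild type 3). Ago4 was highest in olfactory bulb, at 30.5, 35.2 and 34.6 CPM, and lowest in cortex, at 18, 25.9 and 18 CPM. It differed between these by -0.73 ± 0.15 (adjusted p = 0.00184), between hippocampus and olfactory bulb by -0.53 ± 0.15 (0.0146) and between cerebellum and cortex by 0.46 ± 0.15 (0.0222). The hippocampus call was lost without olfactory bulb wild type 2 or 3 (0.059 and 0.0522), and the cerebellum call without cerebellum wild type 2 or cortex wild type 1 or 3 (0.0713 to 0.0995). In the knockout libraries these 3 Ago4 differences were -0.45 ± 0.16 (edgeR adjusted p = 0.0482), -0.15 ± 0.16 (0.567) and 0.17 ± 0.16 (0.437). The knockout test over 4 regions did not pass for Ago3 (0.205) or Ago4 (0.13). It passed for Ago1 (0.0455), Tnrc6c (0.0101) and Drosha (0.028), which had not passed in wild type.

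Pair by pair, the members called were 7 of 10 for cerebellum against cortex, all higher in cerebellum (46.7% of all genes were called, 22.4% with cerebellum higher), and 3 for cerebellum against hippocampus, all higher in cerebellum (42.1% and 19.4%). They were 4 for cortex against olfactory bulb, all lower in cortex (38.3% of all genes called, 18.7% with cortex lower), and 3 for hippocampus against olfactory bulb, all lower in hippocampus (33.8% and 15.8%). None was called between cerebellum and olfactory bulb (36.6%) or between cortex and hippocampus (9.77%), where 0 and 2 members were under 0.05 before adjustment, against 44.3% and 21.6% of all genes. With DESeq2 0 and 1 passed there. The median log2 difference over the 10 members was 0.52 for cerebellum against cortex, beside 0.00 over all genes, and -0.32 for cortex against olfactory bulb, beside -0.03. All 17 differences called had the same sign in the knockout libraries of the same regions, and 12 of the 17 passed there too. Not passing were Ago3, Ago4 and Tnrc6c for cerebellum against cortex, and Ago4 and Dgcr8 for hippocampus against olfactory bulb. The share of all genes' calls that repeated was not computed. Cortex knockout 1 to 3 had 30.5%, 53.7% and 33.6% of reads in no gene, beside 20.3%, 56.2% and 34.9% in wild type. Knockout cortex thus gives no check apart from that share. Cell makeup differs between regions: summed microglia markers were at 47.2 to 65.1 CPM in wild-type cerebellum and 166 to 272 CPM in cortex. Astrocyte markers were at 3169 to 3732 and 6903 to 7562 CPM, and neuron markers at 3703 to 4147 and 6470 to 7258 CPM. Markers of neuroblasts and dividing cells were at 64.1 to 79.7 and 154 to 185 CPM. Those of oligodendrocytes, endothelium, choroid plexus and meninges overlapped between these regions. In tissue, fewer cells of a type and less RNA per cell cannot be told apart.

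The share of reads assigned to no gene moved with the members within cortex. Cortex wild type 2 (56.2%) and cortex knockout 2 (53.7%) were over 40%, and the other 4 cortex libraries were at 20.3% to 34.9%. For 7 members (Ago3, Ago4, Dicer1, Dgcr8, Tnrc6a, Tnrc6b and Tnrc6c) these 2 libraries were above the other 4. Tnrc6a was at 132 and 165 CPM in them and at 74.7 to 102 CPM in the rest. Among all 15777 genes tested in cortex, 18.3% were higher in the same 2 libraries and 21.1% lower. Ago1, Ago2 and Drosha overlapped between the 2 sets. In hippocampus wild type 1, the only library there under 40% (37%), 9 members were lower than in the other 5 hippocampus libraries, all except Ago4. That count rests on 1 library, and the share of all genes lowest there was not computed.

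**Figure D3:**
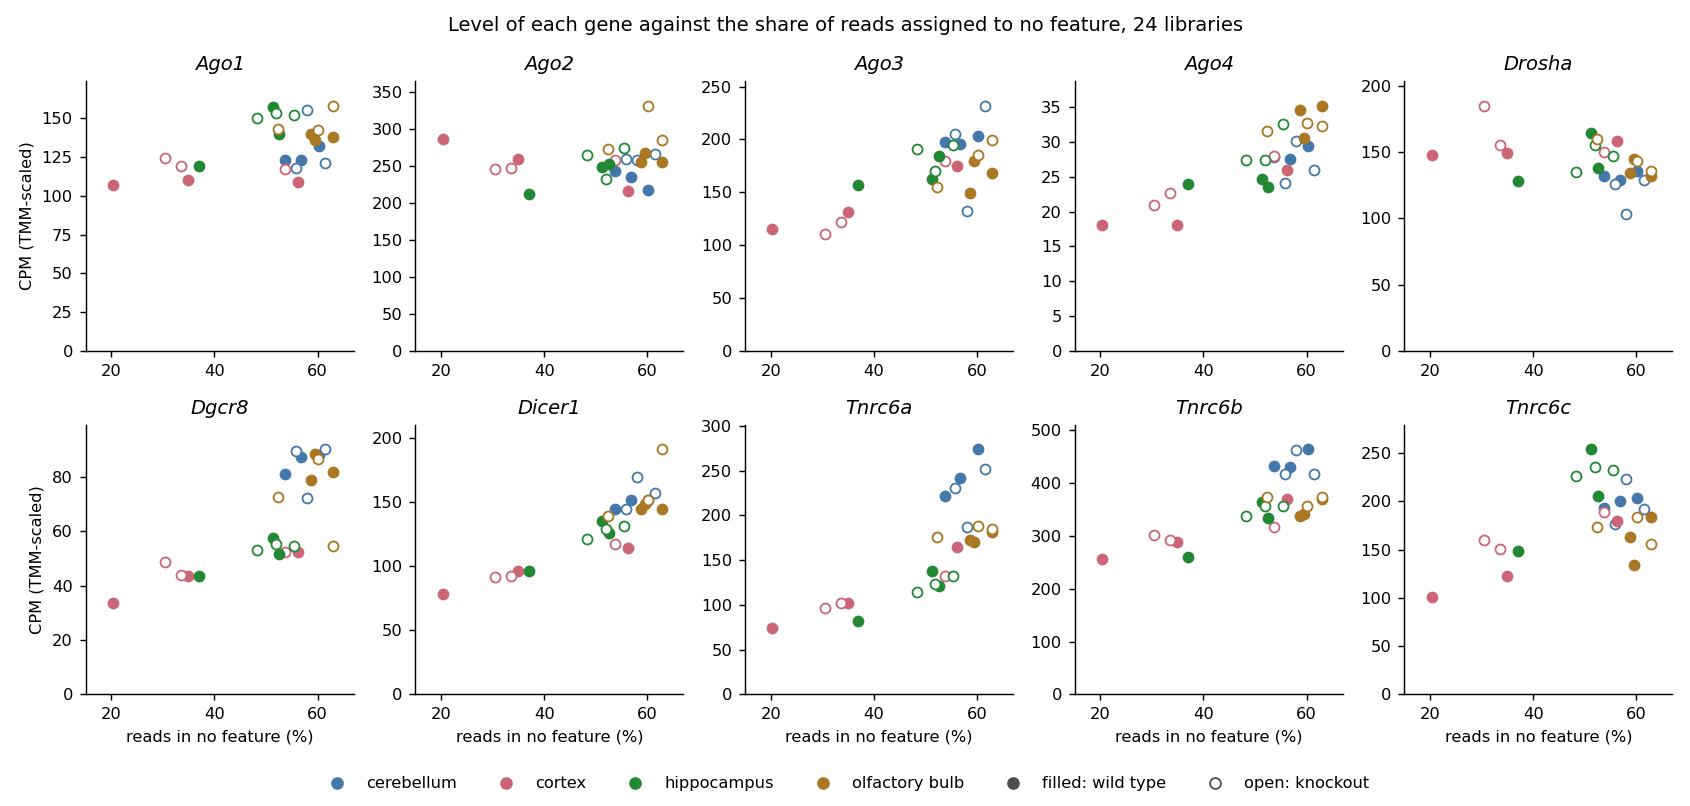
Level of each member in CPM, on axes that start at 0, against the percentage of reads assigned to no gene, for 24 libraries coloured by region and filled for wild type or open for knockout. In cortex, Tnrc6a is at 132 and 165 CPM in the 2 libraries over 40% and at 74.7 to 102 CPM in the 4 others, while Drosha overlaps between them.

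With that share as a covariate, 7 of the 17 regional calls passed. The share of all genes' calls that were kept was not computed, so the members' loss cannot be set against it. Tnrc6a was still higher in cerebellum, by 0.51 ± 0.13 over cortex (adjusted p = 0.00786) and 0.84 ± 0.11 over hippocampus (1.63e-05). Dgcr8 kept all 4 of its calls, with 0.64 ± 0.13 for cerebellum over cortex (0.00132) and -0.56 ± 0.14 for cortex against olfactory bulb (0.00869). Tnrc6b kept cerebellum over hippocampus (0.34 ± 0.10, 0.0106). Ago3, Ago4, Dicer1, Tnrc6b and Tnrc6c no longer passed for cerebellum over cortex, at 0.07 to 0.30 on the log2 scale, where they had been at 0.46 to 0.62. In the test over 4 regions with the covariate, Ago4 and Dicer1 did not pass (adjusted p = 0.101 and 0.201) and Tnrc6c did (0.0115). In wild type the share was 53.7% to 60.2% in cerebellum and 58.7% to 62.9% in olfactory bulb. It was 20.3% to 56.2% in cortex and 37% to 52.6% in hippocampus. The covariate's slope thus rests mainly on cortex and hippocampus libraries, and the share differs with region. A call kept or lost in this fit therefore cannot be assigned to the share or to the region. Between cortex and olfactory bulb, members called went from 4 to 1, and calls over all genes fell too, from 6515 to 4200. Between cerebellum and olfactory bulb, members called rose from 0 to 4. What sets the share in these libraries was not tested.

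**Figure D4:**
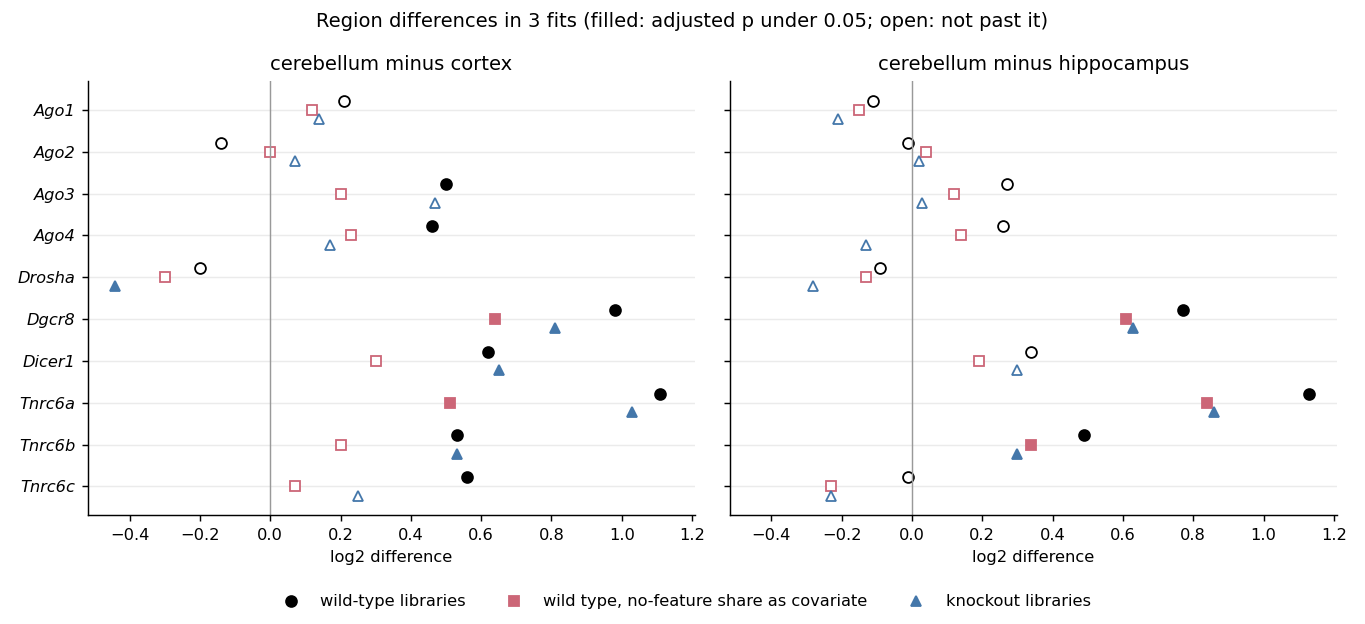
Log2 difference of cerebellum minus cortex and cerebellum minus hippocampus for each member, from 3 edgeR fits: wild-type libraries (circles), wild-type libraries with the percentage of reads in no gene as a covariate (squares) and knockout libraries (triangles), filled where the adjusted p was under 0.05. Dgcr8 and Tnrc6a are filled in all 3 fits in both panels, and with the covariate Tnrc6a moves from 1.11 to 0.51 in the first panel.

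Dgcr8 and Tnrc6a, the members with the widest regional range, have unlike promoters. The 250 bases before the RefSeq start hold 36 CG pairs for Dgcr8 and 9 for Tnrc6a, beside a median of 6 over 32851 mouse promoters. The 9 members with an entry held 8 to 46, the highest being Ago4. Both sequences are given with every CG in capitals, 5′ to 3′ on the gene's strand, build GRCm38.p6, from RefSeq. Dgcr8 is on the minus strand at chr16:18289169-18289418 and Tnrc6a on the plus strand at chr7:123123635-123123884.
Dgcr8: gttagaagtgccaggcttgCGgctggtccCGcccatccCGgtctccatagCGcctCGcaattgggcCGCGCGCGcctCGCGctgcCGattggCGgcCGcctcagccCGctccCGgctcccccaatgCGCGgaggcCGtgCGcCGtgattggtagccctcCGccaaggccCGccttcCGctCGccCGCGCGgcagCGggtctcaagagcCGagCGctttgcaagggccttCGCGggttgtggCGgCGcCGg
Tnrc6a: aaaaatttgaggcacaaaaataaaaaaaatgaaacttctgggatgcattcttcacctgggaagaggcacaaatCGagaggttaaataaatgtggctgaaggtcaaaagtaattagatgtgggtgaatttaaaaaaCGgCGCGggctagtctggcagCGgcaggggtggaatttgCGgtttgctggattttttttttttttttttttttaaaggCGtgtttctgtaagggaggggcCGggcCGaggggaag

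By root-mean-square difference of centred log2 CPM over the 12 wild-type libraries, the genes whose pattern was most like that of Tnrc6a, among 13369 compared, were Rbm33 (0.098) and Tut4 (0.107), the latter a terminal uridylyltransferase that adds U to microRNA precursors. Tut4 was at 174 CPM in cerebellum, 80.8 in cortex, 74 in hippocampus and 127 in olfactory bulb. Idua (0.095) and Lrch1 (0.099) were nearest to Dgcr8, at 30 and 44.8 CPM in cerebellum and 15.1 and 23.9 CPM in cortex. Near Dicer1 was an unnamed entry, ENSMUSG00000029144 (0.091), and Tnrc6b was nearest to Ddx46 (0.064) and Unc80 (0.065). For the Argonautes, near genes were Mier2 (0.084) and Tsc2 (0.095) for Ago1, Dag1 (0.062) and Urgcp (0.066) for Ago2, Serac1 (0.089) and Cep97 (0.090) for Ago3, and Srsf6 (0.106) for Ago4. Drosha was nearest to Trim41 (0.071) and Fam120c (0.074), and Tnrc6c to Ttc13 (0.115) and Yeats2 (0.128). Among the members themselves, Ago3 and Tnrc6b were nearest to each other (0.144), as were Ago2 and Drosha (0.146). Pairs over the same 12 libraries share depth and library effects, and these measures are descriptions.

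The second comparison asked whether loss of Cdr1as changed the machinery. None of the 10 members passed in any of the 4 regions, beside 1 of 15536 genes called in cerebellum (0.00644%), 1 of 15777 in cortex (0.00634%), 1 of 16119 in hippocampus (0.0062%) and 4 of 15831 in olfactory bulb (0.0253%). At an unadjusted p under 0.05 there were 1, 0, 1 and 0 members, against 1.89%, 5.64%, 4.01% and 2.43% of all genes. DESeq2, which called 16 to 40 genes per region, called 0 members as well. All 40 log2 differences lay between -0.25 and 0.28.

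Ago2 in cerebellum was at 259, 267 and 260 CPM in knockout and 244, 218 and 236 CPM in wild type. The genotypes did not overlap, and the log2 difference was 0.17 ± 0.07 (SE, 95% interval 0.01 to 0.34, unadjusted p = 0.0398 from edgeR, adjusted p = 0.949). In olfactory bulb Ago2 was also higher in every knockout library, at 273, 285 and 332 CPM against 268, 255 and 256 CPM (0.16 ± 0.09, interval -0.05 to 0.37, adjusted p = 0.992). In cortex (-0.05 ± 0.12) and hippocampus (0.11 ± 0.11) the genotypes overlapped. Over the 4 regions the mean difference for Ago2 was 0.10 ± 0.08 (interval -0.07 to 0.27, limma adjusted p = 0.908), and its knockout effect was not shown to differ between regions (edgeR interaction, adjusted p = 1).

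Ago4 in hippocampus was at 27.4, 32.5 and 27.4 CPM in knockout and 24, 24.6 and 23.5 CPM in wild type, again without overlap (0.27 ± 0.12, interval 0.01 to 0.54, unadjusted p = 0.0424 from edgeR, adjusted p = 0.953). In the other regions its difference was -0.08 ± 0.14 (cerebellum), 0.19 ± 0.21 (cortex) and -0.09 ± 0.14 (olfactory bulb). Ago1 did not overlap in cortex, at 124, 117 and 119 CPM against 107, 109 and 110 CPM (0.11 ± 0.10, adjusted p = 0.881), and in olfactory bulb, at 143, 158 and 142 CPM against 136, 138 and 140 CPM (0.06 ± 0.09, adjusted p = 0.992). In olfactory bulb the nearest libraries were at 142 and 140 CPM, and the difference was -0.01 without the libraries under 8 M. Members higher in knockout without overlap were thus 1 in cerebellum, 1 in cortex, 1 in hippocampus and 2 in olfactory bulb, and none was lower. Among all genes, 4.89%, 7.61%, 5.65% and 8.09% were higher without overlap, and 6.48%, 5.91%, 3.97% and 4.14% lower.

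Ago3, which carries a miR-7 match, was at 132, 232 and 205 CPM in knockout cerebellum and 198, 203 and 196 CPM in wild type (-0.06 ± 0.18). The low value was in the shallow library, knockout 1, and the difference was 0.13 without it. In cortex Ago3 was at 111, 180 and 122 CPM in knockout and 115, 175 and 131 CPM in wild type (-0.05 ± 0.24), with the high value in number 2 of both genotypes. Hippocampus (0.14 ± 0.10) and olfactory bulb (0.08 ± 0.12) overlapped too. For Ago1, the other member with a match, the 4 differences were 0.06, 0.11, 0.13 and 0.06 from cerebellum to olfactory bulb.

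Dgcr8 had the largest drop of the 40 differences, in olfactory bulb, at 72.5, 54.5 and 86.6 CPM in knockout and 88.4, 81.9 and 79.1 CPM in wild type (-0.25 ± 0.16, interval -0.60 to 0.10, adjusted p = 0.992). The genotypes overlapped. The lowest value, from 311 counts, was in shallow knockout 2, and without the 2 libraries under 8 M the difference was -0.06. Drosha had differences of -0.14 ± 0.10 in cerebellum, 0.08 ± 0.11 in cortex, 0.02 ± 0.12 in hippocampus and 0.06 ± 0.09 in olfactory bulb, and Dicer1 0.08 ± 0.09, 0.03 ± 0.18, 0.09 ± 0.13 and 0.10 ± 0.13. Every interval of these included 0.

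For the scaffolds, Tnrc6c in cortex had the largest positive difference of the 40, at 160, 189 and 151 CPM in knockout and 101, 180 and 123 CPM in wild type (0.28 ± 0.22, interval -0.23 to 0.78, adjusted p = 0.873). It overlapped, and number 2 was the highest library of both genotypes. The difference ranged from 0.12 without cortex wild type 1 to 0.55 without cortex wild type 2. In cortex, deviations from the group means went together between same-numbered libraries; with the number as a block it was 0.31 (adjusted p = 0.301), and 30 genes in all were called in place of 1, none of them a member. Tnrc6a was at -0.14 ± 0.13, -0.07 ± 0.29, 0.11 ± 0.17 and 0.03 ± 0.08 from cerebellum to olfactory bulb, and Tnrc6b at -0.03 ± 0.08, -0.04 ± 0.16, 0.13 ± 0.13 and 0.04 ± 0.08.

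In hippocampus all 10 members lay above 0 (0.02 to 0.27, median 0.12), beside 46.2% of all genes (median -0.02), though 9 of the 10 overlapped between genotypes. Hippocampus wild type 1, with the smallest share of reads in no gene there, was the lowest wild-type library for 9 members. How many of all genes were lowest in that library was not computed. Without hippocampus wild type 1, 4 of the 10 were below 0 (Dicer1 -0.04, Drosha -0.05, Dgcr8 -0.01 and Tnrc6a -0.08). With the share of reads in no gene as a covariate 3 were (Dicer1 -0.03, Drosha -0.05 and Tnrc6a -0.07). Summed markers of choroid plexus (8 genes, 1 of them at 0 in knockout 3 and none in the other 5 libraries) were at 2343, 33.9 and 1886 CPM in hippocampus wild type 1, 2 and 3 and at 34.2 to 40.6 CPM in the knockout libraries. Their part in these values was not tested. In cerebellum 3 members lay above 0, in cortex 6 and in olfactory bulb 8, beside 43.1%, 50.1% and 47.8% of all genes.

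Over the mean of the 4 regions, tested with limma on 3 means per genotype, the members ranged from -0.01 ± 0.09 (Dgcr8) to 0.15 ± 0.12 (Tnrc6c), and none passed (2 of 17600 genes, 0.0114%). The widest 95% interval was that of Tnrc6a, -0.29 to 0.30. Same-numbered means went together here too, and with the number as a block 15 genes and 0 members were called. None passed the interaction of genotype and region either (1 of 17600 genes, 0.00568%), where 0 members had an unadjusted p under 0.05 against 1.48% of all genes. Within single regions the widest interval was that of Tnrc6a in cortex (-0.73 to 0.59) while that of Tnrc6b in olfactory bulb ran from -0.13 to 0.21. A p that misses the threshold does not show that the genotypes are alike, and these intervals give the sizes the data allow.

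**Figure D5:**
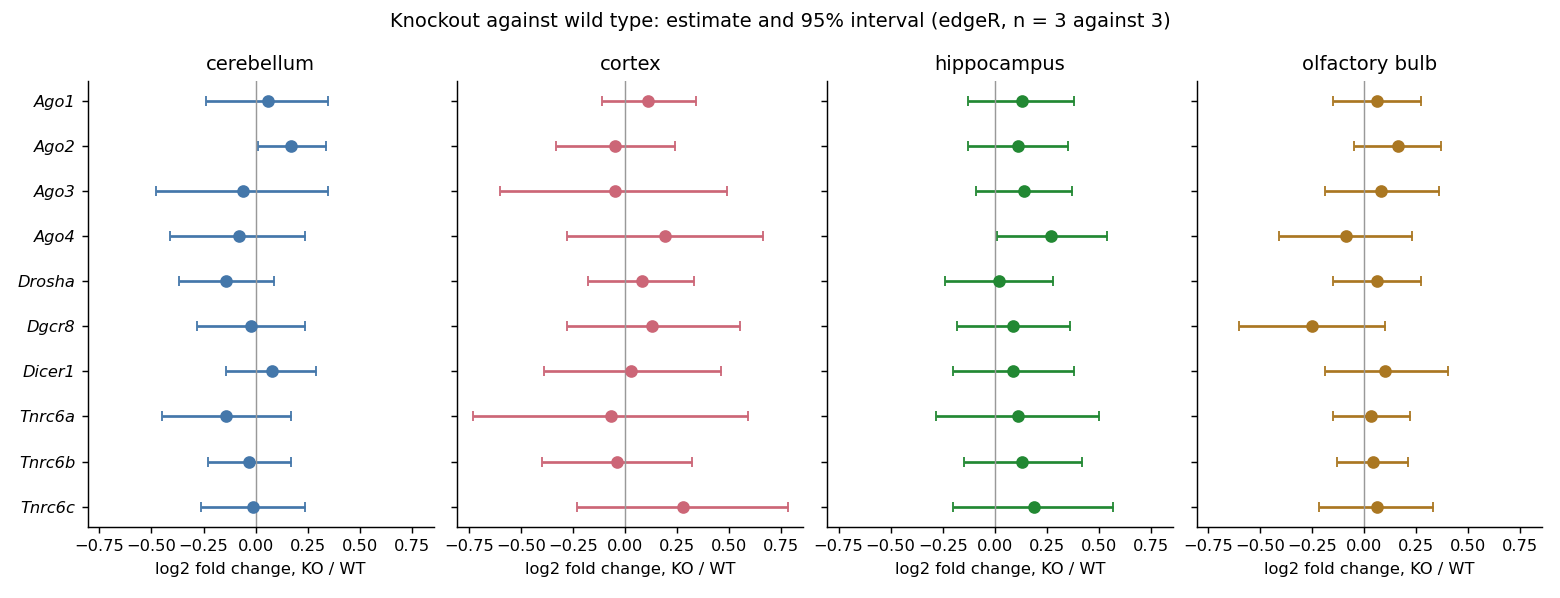
Log2 difference of knockout against wild type for each member in each region, with 95% intervals from edgeR and 3 libraries per genotype. Only the intervals of Ago2 in cerebellum and Ago4 in hippocampus lie above 0, both reaching down to 0.01.

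The wider pathway was followed with 108 further genes in 7 groups: nuclear processing and export, Dicer partners and loading, cofactors of the silencing complex, deadenylation, decapping and decay, tailing and turnover, and PIWI Argonautes. In knockout against wild type, 0 of the 103, 104, 104 and 103 genes tested from cerebellum to olfactory bulb passed. At an unadjusted p under 0.05 there were 1, 4, 2 and 3 pathway genes, beside 1.89%, 5.64%, 4.01% and 2.43% of all genes. The smallest unadjusted p-values in edgeR belonged to Tob1 in cerebellum (0.38 ± 0.15), the fragile X gene Fmr1 in cortex (-0.51 ± 0.18), and Tob2 in hippocampus (0.42 ± 0.14) and olfactory bulb (0.66 ± 0.23), with adjusted p of 0.858 to 0.992. None of these passed. Tob1 and Tob2 encode adaptors that bring the CCR4-NOT deadenylase to its targets, and Fmr1 encodes an RNA-binding translational repressor. Other low p-values were those of Elavl4 in cortex (-0.36 ± 0.14) and hippocampus (-0.30 ± 0.11) and Safb in olfactory bulb (0.24 ± 0.09). For the mean over regions they were Lsm3, at 1.16 CPM or less on average in both genotypes, and Tob2 (0.42 ± 0.15, limma adjusted p = 0.908), and for the interaction Pum2 and Lsm6 (edgeR adjusted p = 1).

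Between wild-type regions, 57 of 104 pathway genes tested passed, beside 59.3% of all genes. Cerebellum against cortex had 29 higher and 20 lower of 104, beside 22.4% and 24.2% of all genes. Of 18 deadenylation genes tested, 8 were higher in cerebellum and 3 lower, of 17 decapping genes 6 and 1, of 17 nuclear processing genes 6 and 2, and of 13 tailing and turnover genes 4 and 0. Of 22 cofactor genes 1 was higher and 8 were lower, of 16 Dicer partners 3 and 6, and the 1 PIWI gene tested was higher. Pathway results with the share of reads in no gene as covariate, or from knockout libraries, are not given here. With that covariate, members called between cerebellum and cortex went from 7 to 2. Pan2 and Pan3, subunits of a deadenylase that Tnrc6 proteins recruit, were at 75.4 ± 7.24 and 229 ± 11.9 CPM in cerebellum and at 21.1 ± 6.31 and 79.5 ± 17.2 CPM in cortex (SD, n = 3 each). Tarbp2, the double-stranded RNA-binding partner of Dicer1, was at 27.4 ± 1.97 CPM in cerebellum and 7.45 ± 1.76 in cortex (adjusted p over 4 regions = 3.97e-05 in edgeR). Fkbp5, a cochaperone placed in the loading group, ran the other way, at 15.7 ± 1.63 CPM in cerebellum and 80.8 ± 9.36 in hippocampus (3.60e-08). Elavl4, a neuronal RNA-binding protein of the cofactor group, was highest in cortex at 115 ± 15.6 CPM and lowest in olfactory bulb at 30.5 ± 3.47 (1.29e-06). Safb2 (165 ± 15.3 CPM in cerebellum, 62 ± 24.7 in cortex), Tut4 (174 ± 21.1 in cerebellum, 74 ± 12.4 in hippocampus) and Eri1 (25.6 ± 1.68 in cerebellum, 16.3 ± 2.27 in olfactory bulb) were highest in cerebellum. The decapping gene Dcp1b was highest in olfactory bulb (43.1 ± 1.88 CPM, against 18.1 ± 4.53 in cortex) and Lsm7 in hippocampus (9.78 ± 2.7, against 3.84 ± 1.76 in olfactory bulb). Lin28b, which blocks processing of let-7 microRNAs, was highest in cortex at 10.6 ± 4.09 CPM, while Trim71 and Piwil2 stayed under 3 CPM in every region.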

How the data were processed

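Total RNA was sequenced after removal of ribosomal RNA by an RNase H method, with a stranded kit, per the labels' protocols. The values the authors deposited are whole-number read counts for each gene in a separate table for every library, and bcl2fastq 2.17.1.14, STAR 2.5.1b, HTSeq 0.6.1p1 and the mm9 build are named in the submitters' processing notes. Neither the role of each tool nor the strand setting is given in the sources used here. Each table's 5 summary entries stayed out of library sizes and tests; reads in no feature were 20.3% to 62.9%, ambiguous reads 0.2% to 0.45% and reads without a unique alignment 8.8% to 21.4% of all entries. GENCODE M21 (GRCm38, a later build than mm9) gave names, exon lengths and 3′ UTRs only; it matched 32897 identifiers with 98.47% of counts.

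Genes with enough counts (filterByExpr, minimum count 10) entered edgeR 4.0.16 (R 4.3.3), where TMM-scaled quasi-likelihood F-tests compared the genotypes of a region. Wild-type regions were compared in a fit over 12 libraries. The mean over regions used limma 3.58.1 on log2 CPM (prior count 2) averaged over the 4 regions. Tests are two-sided, p-values were adjusted by the Benjamini-Hochberg method over all genes tested, and 0.05 was the threshold. The scripts were tested on simulated data. Alternatives were DESeq2 1.42.0, RLE scaling, other filters (none, or 1 CPM in 3 libraries), a fit over all 24 libraries, a covariate for the percentage of reads in no feature, a replicate block and leaving out each library. Values from counts carry counting error beside the spread between libraries.

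Same-numbered knockout and wild-type libraries deviated together in cortex (r = 0.14 to 0.59 across genes) and in the mean over regions (0.17 to 0.23). In the other regions r was -0.22 to 0.11, with cerebellum at 0.06 to 0.11. In cortex an unlike pair, wild type 1 and knockout 3, was at 0.32, so the numbers do not establish a pairing. The main fits were unpaired in every region and for the mean, and the block by number was an alternative. No replicate pair agreed within sampling noise. The members, lists and tests were chosen with earlier results of these data known. Named beside the members were the pathway genes with the 2 smallest p-values per knockout comparison, the 2 largest passing regional spans per list, and the 2 genes most like each member. Of 109 pathway genes written, 108 matched. Some genes that this rule names are not reported here.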

Additional observations from a re-analysis of the deposited data

How the results depend on the processing

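In none of 640 member knockout differences recomputed under an alternative did a member pass the threshold; the largest was 0.55 in size, and 43 had the other sign, 36 of them with a library left out. Genes called per region, 1, 1, 1 and 4 from cerebellum to olfactory bulb, became 19, 40, 16 and 17 with DESeq2, 4, 6, 2 and 7 with all 24 libraries in 1 fit, and 3, 7, 5 and 16 with no low-count filter. The share in no feature as covariate gave 62 in cortex and 2 in hippocampus. For the mean over regions, 2 genes became 78 with edgeR over all 24 libraries and 5 without the filter. The interaction's 1 gene became 15 with DESeq2, 2 without the filter and 2 without the libraries under 8 M. With a library left out the counts ran from 1 to 3 in cerebellum and in cortex, 1 to 47 in hippocampus (47 without wild type 2), 1 to 8 in olfactory bulb, 2 to 5 for the mean and 1 to 2 for the interaction.

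With the replicate number as a block, 30 genes were called in cortex, 6 in hippocampus, 11 in olfactory bulb, 15 for the mean over regions and 3 for the interaction; 0 members were called in each. Only in cortex and in the mean was r over 0.1 for every same-numbered pair of genotypes. A block within region could not be fitted to wild-type regions; with the number shared over regions, chosen after seeing the data, 2 members were called between cerebellum and olfactory bulb and 1 between cortex and hippocampus, and no other paired call moved a count by over 1.5 times.

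Member differences of the other sign were small. With the covariate Dicer1 was at -0.01 in cortex, and Dicer1, Drosha and Tnrc6a at -0.03, -0.05 and -0.07 in hippocampus. Without the libraries under 8 M, Ago1 and Dicer1 in olfactory bulb were at -0.01 and -0.04, and edgeR over all libraries gave Tnrc6a -0.01 for the mean. Leaving out a library gave, in cerebellum, Ago1 -0.09 to 0.14, Ago3 -0.23 to 0.13, Dgcr8 -0.08 to 0.07, Tnrc6b -0.09 to 0.03 and Tnrc6c -0.12 to 0.07. In cortex it gave Ago2 -0.14 to 0.05, Ago3 -0.32 to 0.15, Dicer1 -0.12 to 0.19, Tnrc6a -0.29 to 0.31 and Tnrc6b -0.14 to 0.14. In hippocampus it gave Dicer1 -0.04 to 0.20, Drosha -0.05 to 0.14, Dgcr8 -0.01 to 0.19 and Tnrc6a -0.08 to 0.27. In olfactory bulb it gave Dicer1 -0.05 to 0.21 and Tnrc6c -0.05 to 0.16. For the mean it gave Ago3 -0.11 to 0.15, Drosha -0.02 to 0.04, Dgcr8 -0.08 to 0.05, Tnrc6a -0.14 to 0.15 and Tnrc6b -0.04 to 0.12.

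Between wild-type regions, the covariate changed the members called from 7 to 2 for cerebellum against cortex, from 0 to 4 for cerebellum against olfactory bulb and from 4 to 1 for cortex against olfactory bulb, where genes called fell from 6515 to 4200. Knockout libraries in place of wild type, added after seeing the data, gave 1 member for cerebellum against olfactory bulb and 1 for cortex against hippocampus, and DESeq2 gave 1 for the latter. With a library left out, the members called ran from 2 to 5 (cerebellum against hippocampus), 0 to 2 (cerebellum against olfactory bulb), 0 to 2 (cortex against hippocampus, where genes called ran from 1135 to 2521), 3 to 8 (cortex against olfactory bulb) and 1 to 3 (hippocampus against olfactory bulb); the highest value of the first 4 came without cortex wild type 2. RLE scaling moved libraries by -0.059 to 0.068 on the log2 scale. Causes of these shifts were not tested.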
